A study of Mus musculus with 12 samples.

Results

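The 32 genes described here encode antioxidant and peroxide-handling enzymes and the proteins that regulate them. They were chosen by gene name from the 55536 genes of the deposited table, as 6 glutathione peroxidases, 6 peroxiredoxins, 7 genes of the thioredoxin system, 3 superoxide dismutases with catalase, 4 genes of glutathione synthesis and recycling, and 5 genes of the NRF2 group with stress reductases. Thyroids were sequenced from 5 affected mice, which had thyroid dysplasia and came from the B6NTac line, and from 7 unaffected mice. The paper reports that a part of the B6NTac line carries a LINE-1 element in an intron of the thyroglobulin gene (*Tg*). It also reports that most reads from the exon before the element skipped the exon after it in each affected mouse. In unaffected mice few did. The unaffected group held 6 B6NCrl mice and 1 B6NTac mutant (replicate 14), described in the methods as a knockout animal, whose targeted gene is not named in the sources used here. LINE-1 genotype, sex, age and batch of the mice are not in the labels, and the labels do not say whether the mice shared litters. Apart from replicate 14, colony and phenotype split the mice in the same way and cannot be told apart.

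Follicular cells of the thyroid make hydrogen peroxide at their apical membrane, where it is used to couple iodine to thyroglobulin. Peroxide also arises inside the endoplasmic reticulum (ER) when disulfide bonds form in secreted proteins. Glutathione peroxidases, peroxiredoxins and catalase remove peroxide, and reduced glutathione and thioredoxin supply most of the electrons. The transcription factor NRF2, held in check by KEAP1, binds antioxidant response elements (AREs) and raises transcription of many of these enzymes.

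Total gene counts were between 20170500 and 23319948 in affected mice and between 11434901 and 22401136 in unaffected mice, with the lowest total in replicate 14. *Tg* alone took 10.7% to 24.3% of the counts in affected mice and 21.6% to 29.6% in unaffected mice, and was lowest in affected replicates 1 and 6. Of 10 follicular markers, all 10 passed the filter on low counts, and *Tg* was the most abundant. Of these 10, 1 was lower in affected mice (*Pax8*, a transcription factor of follicular cells, log2 fold change -0.81, adjusted p = 0.0158) and 1 was higher (*Slc26a4*, which encodes the anion transporter pendrin, 0.607 to 3.34 CPM against 0 to 0.294 CPM, adjusted p = 0.003). At an unadjusted p under 0.05, 3 were lower (*Tg*, *Pax8* and *Foxe1*) and 1 higher. Their part in the values below was not tested. Genes of neighbouring tissues varied between mice. The summed level of 8 skeletal muscle genes, in counts scaled to the library total (CPM), ran from 9.07 to 28409 over the 12 mice. That of 8 adipose genes ran from 445 to 3054 CPM in affected mice and from 510 to 1002 CPM in unaffected mice, and was highest in affected replicate 1. Of 5 T cell genes tested, 0 were higher or lower at an adjusted or unadjusted p under 0.05, and their sum was 258 and 249 CPM in unaffected replicates 14 and 21 and at most 43.6 CPM in the other mice.

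All 32 genes passed the filter on low counts, which left 19661 genes. In affected mice 11 of the 32 were higher and 0 were lower, with an adjusted p under 0.05 (quasi-likelihood test of edgeR, adjusted by the Benjamini-Hochberg method over all genes tested). Those 11 are 34.4% of the group, beside 13.7% of all genes tested that passed in either direction, 7.63% that were higher and 6.1% that were lower. The median log2 fold change was 0.29 over the 32 genes and 0.0052 over all genes tested. It was positive for 27 of the 32 genes and negative for 5, of which 1 (*Prdx5*) had an unadjusted p under 0.05, and DESeq2 called that 1 gene lower. With library totals taken without *Tg* and without TMM factors, 7 of the 32 were higher and the values of *Txn1*, *Prdx4* and *Keap1* turned negative. The median of all genes moved to -0.13 in that fit. For 5 genes (*Sod3*, *Hmox1*, *Prdx1*, *Gpx4* and *Txn2*) the lowest affected mouse was above the highest unaffected mouse. Those 5 are 15.6% of the group, beside 3.78% of all genes tested with the affected mice above and 7.14% without overlap in either direction.

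**Figure D1:**
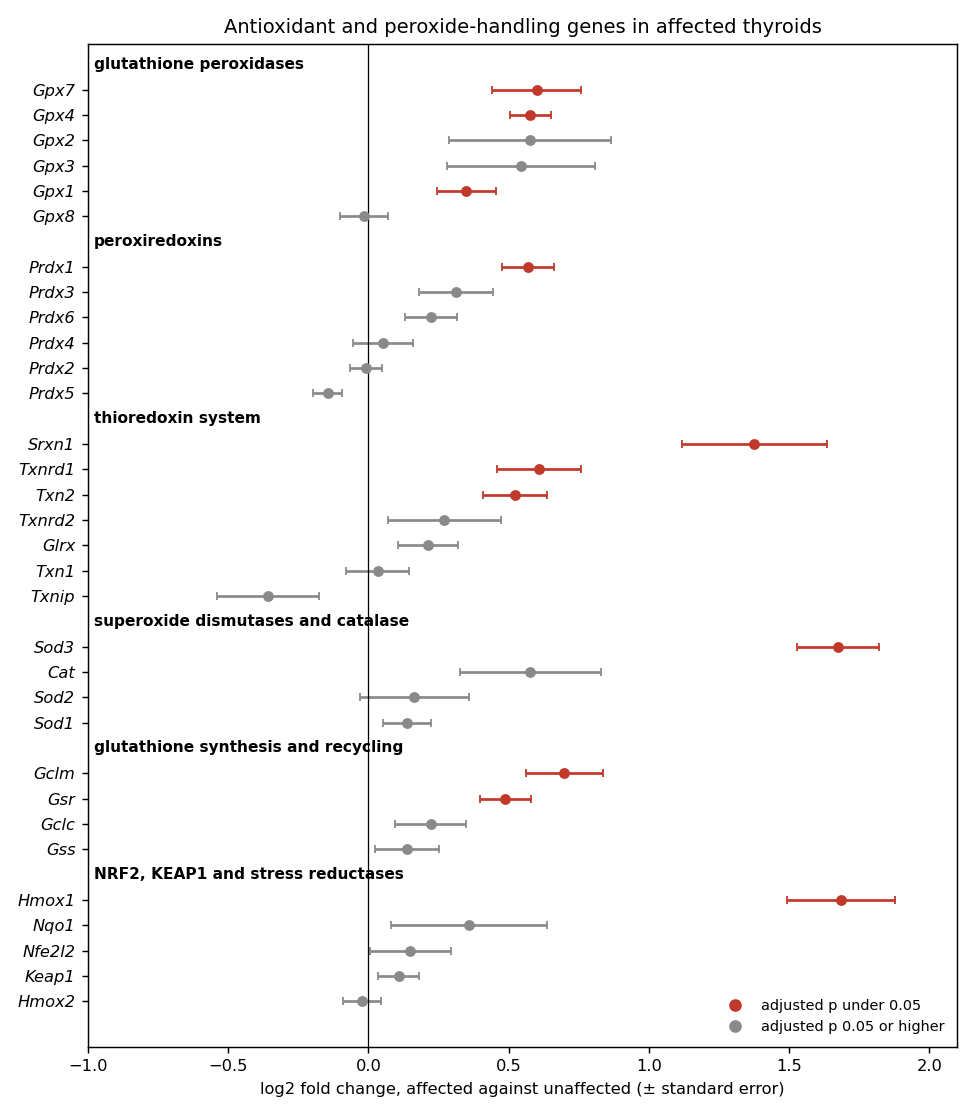
Log2 fold change of each of the 32 genes in affected against unaffected mice, grouped by role and ordered within each role, with the SE as a bar and genes with an adjusted p under 0.05 in red. *Hmox1* (1.68), *Sod3* (1.67) and *Srxn1* (1.38) lie furthest to the right, and the 8 other genes in red lie between 0.35 and 0.70.

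*Hmox1* and *Sod3* showed the greatest increases of the 32 genes. *Hmox1* (heme oxygenase 1, which breaks heme down to biliverdin, iron and carbon monoxide) lies on chromosome 8 of GRCm38, from 75093621 to 75100589 on the plus strand. *Hmox1* had 18.8, 21.7, 15.7, 28.2 and 13.6 CPM in affected replicates 1, 3, 4, 5 and 6. The unaffected mice ran from 4.88 to 8.32 CPM with a median of 5.27, so the groups did not overlap. *Hmox1* was 3.22-fold higher in affected mice (log2 fold change 1.68, standard error (SE) 0.19, adjusted p = 0.000222). These are bulk samples, in which a different number of cells of a type and a different amount of RNA per cell cannot be told apart. *Hmox2*, the constitutive heme oxygenase, averaged 25.3 CPM over the affected group (SD 2.37, n = 5) and 25.7 CPM over the unaffected group (SD 1.18, n = 7), with a log2 change of -0.02 (SE 0.07, adjusted p = 0.854). Exons of *Hmox2* overlap *Cdip1* on the other strand over 40.2% of their length, and the sources do not say whether reads were counted by strand, so reads of the 2 genes may be mixed.

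Macrophages, which take up red cells, are a known site of heme oxygenase 1. Of 8 macrophage markers, 4 were higher in affected mice (*Cd68*, *Csf1r*, *Mrc1* and *Cd163*) and none was lower, and none of the 8 was at 0. That count was 2 without affected replicate 1 or 5 or with library totals without *Tg*, 7 with DESeq2 and 8 without unaffected replicate 21. Their summed level ran from 198 to 291 CPM in affected mice and from 92.2 to 208 CPM in unaffected mice, so the groups overlapped. *Csf1r* had a log2 fold change of 0.68 and *Mrc1* one of 0.74. With the mean of the macrophage list as a covariate, chosen after seeing the data, *Hmox1* had a log2 fold change of 1.50 (adjusted p = 0.0209). In that fit 8 of the 32 genes were higher, beside 672 of all 19661 genes tested. Of 5 erythrocyte genes tested, 0 were higher or lower, at an adjusted or an unadjusted p under 0.05. Their summed level ran from 263 to 1447 CPM in affected mice and from 200 to 1509 CPM in unaffected mice.

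*Sod3*, the extracellular superoxide dismutase, is secreted and bound to matrix around cells. It lies on chromosome 5 of GRCm38, from 52363791 to 52371418 on the plus strand. *Sod3* had 83.4, 126, 129, 110.4 and 82.2 CPM in affected replicates 1, 3, 4, 5 and 6. Among unaffected mice the lowest value was 27.2, the median 36.3 and the highest 39.2 CPM. The groups did not overlap, and the lowest affected mouse was replicate 6. *Sod3* rose 3.19-fold (log2 fold change 1.67, SE 0.15, adjusted p = 5.53e-05).

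Of 6 fibroblast markers, 2 were higher in affected mice and 0 lower. They were *Dcn*, the most abundant, which encodes the matrix proteoglycan decorin (log2 fold change 0.58, adjusted p = 0.0139), and *Pdgfra*, a growth factor receptor (0.38, adjusted p = 0.0443). The summed level of the 6 ran from 757 to 1186 CPM in affected mice and from 570.1 to 819 CPM in unaffected mice, so the groups overlapped. It was highest in affected replicates 1 (1186) and 6 (1126), the mice with the lowest *Sod3* of the affected group. Of 5 endothelial markers, 1 was lower (*Kdr*, -0.60, adjusted p = 0.0413) and 0 higher, and their sum ran from 388 to 549 CPM in affected mice and from 424 to 596 CPM in unaffected mice. The part of these cell types in the value of *Sod3* was not tested.

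The other dismutases and catalase did not pass the test. *Sod1*, the cytosolic enzyme, showed a log2 change of 0.14 (SE 0.08, adjusted p = 0.313), and *Sod2*, the mitochondrial enzyme, one of 0.16 (SE 0.20, adjusted p = 0.629). *Cat*, the catalase of peroxisomes, averaged 202 CPM over the affected group (SD 102, n = 5) and 135 CPM over the unaffected group (SD 22.0, n = 7). Its value was 369.6 CPM in affected replicate 1 and between 107 and 209 CPM in the other affected mice. The log2 fold change of *Cat* was 0.58 (SE 0.25, adjusted p = 0.151), and 0.75 (adjusted p = 0.0419) without affected replicate 4, which had the lowest value. Without affected replicate 1, which had the highest, it was 0.24 (adjusted p = 0.436).

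**Figure D2:**
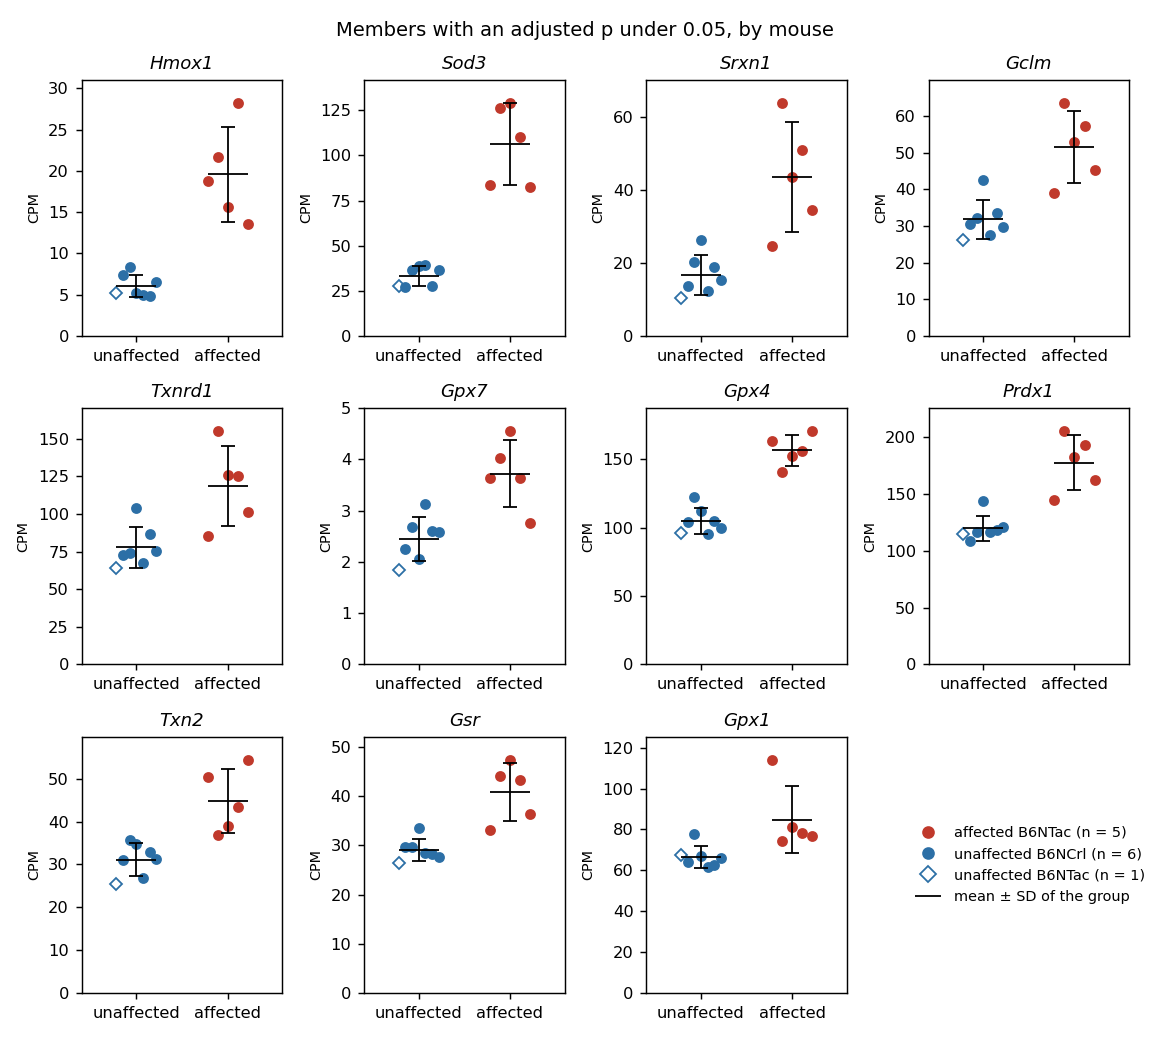
CPM of the 11 genes with an adjusted p under 0.05 in each mouse, with affected mice in red, unaffected B6NCrl mice as filled blue points and the unaffected B6NTac mouse as an open diamond, and with bars for the mean and SD of each group. The groups are apart for *Hmox1*, *Sod3*, *Gpx4*, *Prdx1* and *Txn2* and overlap for the other 6 genes.

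In the thioredoxin system, 3 of 7 genes rose in affected mice. *Srxn1* (sulfiredoxin, which restores overoxidised peroxiredoxins) had 24.8, 63.8, 43.5, 50.9 and 34.6 CPM in affected replicates 1, 3, 4, 5 and 6. Its unaffected values had a minimum of 10.3, a median of 15.3 and a maximum of 26.3 CPM. Affected replicate 1 fell below unaffected replicate 23, and the other 4 affected mice were above all unaffected mice. *Srxn1* rose 2.60-fold (log2 fold change 1.38, SE 0.26, adjusted p = 0.00493).

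*Txnrd1* (cytosolic thioredoxin reductase, a selenoprotein) had 85.1, 155, 126, 125 and 101 CPM in the affected mice, in the same order. Unaffected mice had between 64.1 and 104 CPM with a median of 74.0. Affected replicates 1 and 6 lay below unaffected replicate 23. *Txnrd1* rose by 0.61 on the log2 scale (SE 0.15, adjusted p = 0.0186), and without affected replicate 3 the value was 0.49 (adjusted p = 0.0511). The call of *Txnrd1* was lost in 3 of 25 other fits, with adjusted p up to 0.0646. *Txn2* (mitochondrial thioredoxin) had 50.3, 36.9, 39, 43.3 and 54.4 CPM in affected mice and from 25.4 to 35.7 CPM, median 31.3, in unaffected mice. Replicate 3 was the lowest affected mouse for *Txn2* and the highest for *Txnrd1*. *Txn2* rose by 0.52 on the log2 scale (SE 0.11, adjusted p = 0.00984), and its call was lost with the macrophage list as a covariate (adjusted p = 0.0507).

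The other 4 genes of the system did not pass the test. *Txn1*, the cytosolic thioredoxin that *Txnrd1* reduces, averaged 72.8 CPM over the affected group (SD 12.8, n = 5) and 71.1 CPM over the unaffected group (SD 7.29, n = 7), with a log2 change of 0.03 (adjusted p = 0.88). *Txnrd2*, the mitochondrial reductase, showed a log2 change of 0.27 (SE 0.20, adjusted p = 0.413), and *Glrx*, a glutaredoxin, one of 0.21 (adjusted p = 0.207). *Txnip*, which binds and inhibits thioredoxin, had 1270, 689.5, 1118, 815 and 1490 CPM in affected replicates 1, 3, 4, 5 and 6 and from 1161 to 1745 CPM, median 1372, in unaffected mice. Its 2 lowest values were in affected replicates 3 and 5, and the other 3 affected mice were near or within the unaffected range. The log2 fold change of *Txnip* was -0.36 (SE 0.18, adjusted p = 0.21), and -0.23 (adjusted p = 0.392) without affected replicate 3. An antisense gene (Gm15441) overlaps 19.4% of the exon length of *Txnip*, so its counts may hold reads of both.

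Among the 6 peroxiredoxins, which reduce peroxide through a reactive cysteine, 1 rose. *Prdx1*, a cytosolic member, had 145, 205, 183, 193 and 163 CPM in affected replicates 1, 3, 4, 5 and 6. In unaffected mice it had from 109 to 144 CPM with a median of 116. The highest unaffected mouse (replicate 23) was just below the lowest affected mouse (replicate 1). *Prdx1* rose by 0.57 on the log2 scale (SE 0.09, adjusted p = 0.00183).

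*Prdx3* in mitochondria had a log2 fold change of 0.31 (adjusted p = 0.137), and *Prdx6*, which reduces lipid peroxides, one of 0.22 (adjusted p = 0.13). *Prdx4*, the peroxiredoxin of the ER, averaged 15.9 CPM over the affected group (SD 2.56, n = 5) and 15.3 CPM over the unaffected group (SD 1.51, n = 7). Its log2 fold change was 0.05 (SE 0.11, adjusted p = 0.788). *Prdx2*, a cytosolic member abundant in red cells, had a log2 fold change of -0.01 (adjusted p = 0.935). *Prdx5* averaged 71.8 CPM over the affected group (SD 3.25, n = 5) and 79.5 CPM over the unaffected group (SD 3.28, n = 7), with a log2 change of -0.15 (SE 0.05, adjusted p = 0.0755). With DESeq2 the value for *Prdx5* was -0.14 (adjusted p = 0.0272). Exons of *Prdx5* overlap *Trmt112* on the other strand over 19.1% of their length, with the same limit as for *Hmox2*.

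Of the 6 glutathione peroxidases, which reduce peroxides with glutathione or another thiol, 3 rose. *Gpx4*, a selenoprotein that reduces lipid peroxides in membranes, had 163, 141, 152, 156 and 170.3 CPM in affected replicates 1, 3, 4, 5 and 6. Unaffected values lay between 95.2 and 122 CPM with a median of 104. All affected mice were above all unaffected mice, and replicate 3 was the lowest affected mouse. *Gpx4* rose by 0.58 on the log2 scale (SE 0.07, adjusted p = 0.000451).

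*Gpx7*, a peroxidase of the ER, had 3.63, 4.04, 4.55, 3.63 and 2.76 CPM in the affected mice in that order. Its unaffected values ran from 1.84 to 3.12 CPM, median 2.58, and affected replicate 6 lay among them. *Gpx7* rose by 0.60 on the log2 scale (SE 0.16, adjusted p = 0.0253), and its adjusted p was 0.0606 without affected replicate 3 and 0.0524 without affected replicate 5. Its call was lost in 6 of 25 other fits, with adjusted p up to 0.139. *Gpx8*, the other ER member, averaged 14.5 CPM over the affected group (SD 1.42, n = 5) and 14.7 CPM over the unaffected group (SD 1.26, n = 7). Its log2 fold change was -0.02 (SE 0.09, adjusted p = 0.926).

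*Gpx1*, the widespread cytosolic selenoprotein, had 114, 74.1, 81.0, 78.1 and 76.7 CPM in the affected mice and from 61.4 to 77.7 CPM, median 66.2, in unaffected mice. Replicate 1 stood apart from the other affected mice, and replicates 3 and 6 lay within the unaffected range. *Gpx1* rose by 0.35 on the log2 scale (SE 0.10, adjusted p = 0.0446), and without affected replicate 1 the value was 0.22 (adjusted p = 0.0729). The call was lost in 18 of 25 other fits, with adjusted p up to 0.403. *Gpx3*, the secreted peroxidase, averaged 231 CPM over the affected group (SD 95.7, n = 5) and 158 CPM over the unaffected group (SD 50.9, n = 7), with a log2 change of 0.54 (adjusted p = 0.197), and of 0.34 (adjusted p = 0.456) without affected replicate 1. *Gpx2*, known from epithelia of the gut, averaged 40.0 CPM over the affected group (SD 18.3, n = 5) and 26.8 CPM over the unaffected group (SD 6.48, n = 7), with a log2 change of 0.58 (adjusted p = 0.211).

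Genes of glutathione synthesis and recycling had positive fold changes throughout, and 2 of 4 passed the test. *Gclm*, the modifier subunit of glutamate-cysteine ligase, had 38.9, 63.5, 53.0, 57.4 and 45.1 CPM in affected replicates 1, 3, 4, 5 and 6. Values in unaffected mice went from 26.1 to 42.6 CPM with a median of 30.6. Affected replicate 1 was below unaffected replicate 23, and the other affected mice were above all unaffected mice. *Gclm* rose by 0.70 on the log2 scale (SE 0.14, adjusted p = 0.00572). Its exons overlap a pseudogene (Gm6061) on the same strand over 3.9% of their length, so a part of its counts is uncertain.

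*Gsr* (glutathione reductase, which regenerates reduced glutathione) had 33.2, 44.0, 47.4, 43.3 and 36.4 CPM in the affected mice and from 26.5 to 33.6 CPM, median 28.5, in unaffected mice. Affected replicate 1 and unaffected replicate 23 again crossed. *Gsr* rose by 0.49 on the log2 scale (SE 0.09, adjusted p = 0.00437). With library totals without *Tg* its value was 0.36 and its call was lost (adjusted p = 0.0596). *Gclc*, the catalytic subunit of the ligase, showed a log2 change of 0.22 (SE 0.13, adjusted p = 0.279). *Gss*, which encodes glutathione synthetase, had one of 0.14 (SE 0.11, adjusted p = 0.463).

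The regulators did not pass the test. *Nfe2l2*, which encodes NRF2, had 104, 159.9, 157, 167 and 92.6 CPM in affected replicates 1, 3, 4, 5 and 6 and from 105 to 144 CPM, median 124, in unaffected mice. Replicates 3, 4 and 5 were above all unaffected mice, and replicates 1 and 6 were below all of them, so the affected mice lay on both sides of the unaffected range. The log2 fold change of *Nfe2l2* was 0.15 (SE 0.14, adjusted p = 0.539). *Keap1* averaged 39.1 CPM over the affected group (SD 3.63, n = 5) and 36.3 CPM over the unaffected group (SD 2.80, n = 7), with a log2 change of 0.11 (adjusted p = 0.368). *Nqo1*, a quinone reductase used as an index of NRF2 activity, averaged 7.75 CPM over the affected group (SD 2.08, n = 5) and 6.03 CPM over the unaffected group (SD 2.46, n = 7), with a log2 change of 0.36 (SE 0.28, adjusted p = 0.434).

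Promoters of the group were searched in the RefSeq promoter table (GRCm38.p6), which gives 250 bases before and 50 after each start, and 27 of the 32 genes had an entry. *Sod3*, *Hmox1*, *Gsr*, *Gclc* and *Prdx6* had none. The ARE core TGACNNNGC, on either strand, was found for 6 of these 27 genes (22.2%) and for 14.0% of all 27025 genes in the table. The 6 were *Gclm*, *Prdx1*, *Txnrd1*, *Srxn1*, *Sod1* and *Nfe2l2*, so that 4 of the 8 called genes with an entry held a match. *Sod1* and *Nfe2l2* were not called. The share with a match among all called genes was not counted, and the difference from 14.0% of all genes was not tested. A related form with an AP-1 site inside it, TGACTCAGC or TGAGTCAGC, was found for *Prdx1* (the first) and *Srxn1* (the second). These are 7.41% of the group, beside 0.929% of all genes. TGACTCAGC is also a match to the ARE core, and TGAGTCAGC is not. The windows of the 4 called genes are shown on the plus strand, which is also the strand of each gene. These 4 genes had affected replicate 3 as the highest affected mouse and replicate 1 as the lowest. The same held for *Gpx2* and *Nqo1*, which had an entry and no match, and not for *Sod1* and *Nfe2l2*, which had a match. Capitals mark the match, which lies 134 bases before the start for *Gclm*, 133 for *Prdx1*, 92 for *Txnrd1* (at 1 of its 3 annotated starts) and 45 for *Srxn1*, and which reads in the opposite direction to the gene in the first 3. The *Gclm* window is chr3:122245397-122245457, that of *Prdx1* is chr4:116685440-116685500, that of *Txnrd1* is chr10:82859088-82859148, and that of *Srxn1* is chr2:152105453-152105513. For *Srxn1* the match shown is TGAGTCAGC, which is not a match to the ARE core. Its ARE core match lies 29 bases after the start.
Gclm: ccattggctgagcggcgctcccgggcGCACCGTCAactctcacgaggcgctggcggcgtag
Prdx1: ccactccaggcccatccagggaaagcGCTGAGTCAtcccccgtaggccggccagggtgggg
Txnrd1: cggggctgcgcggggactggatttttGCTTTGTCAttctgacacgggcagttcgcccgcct
Srxn1: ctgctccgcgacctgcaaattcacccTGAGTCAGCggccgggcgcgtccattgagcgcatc

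A match describes the letters of a window and does not show that a factor binds there. The element of ATF4 and CHOP (TGATGNAA, either strand) was found in 0 of the 27 promoters and for 4.51% of all genes. The ER stress response element, searched by its consensus, was found in 0 of the 27 and for 0.137% of all genes. Elements this rare over all genes would often be absent from 27 promoters, so neither 0 bears on how the group is regulated.

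4 sets of at least 4 genes each shared their highest mouse in both groups. *Gpx2*, *Prdx1*, *Txn1*, *Txnrd1*, *Srxn1*, *Gclc*, *Gclm* and *Nqo1*, 8 of the 32 genes, had affected replicate 3 as the highest affected mouse and unaffected replicate 23 as the highest unaffected mouse. *Gpx4*, *Prdx3*, *Txn2*, *Sod2* and *Keap1* were highest in affected replicate 6 and unaffected replicate 22. *Gpx1*, *Gpx3*, *Txnrd2* and *Cat* were highest in affected replicate 1 and unaffected replicate 22. *Sod3*, with *Gpx7*, *Prdx4*, *Glrx* and *Sod1*, was highest in affected replicate 4 and unaffected replicate 24. Among unaffected mice, replicate 22 was the highest for 11 of the 32 genes and replicate 23 for 10. The 12 mice are 1 library each, so these orders were not tested. The share of all genes tested with the same pairs of highest mice was not counted.

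**Figure D3:**
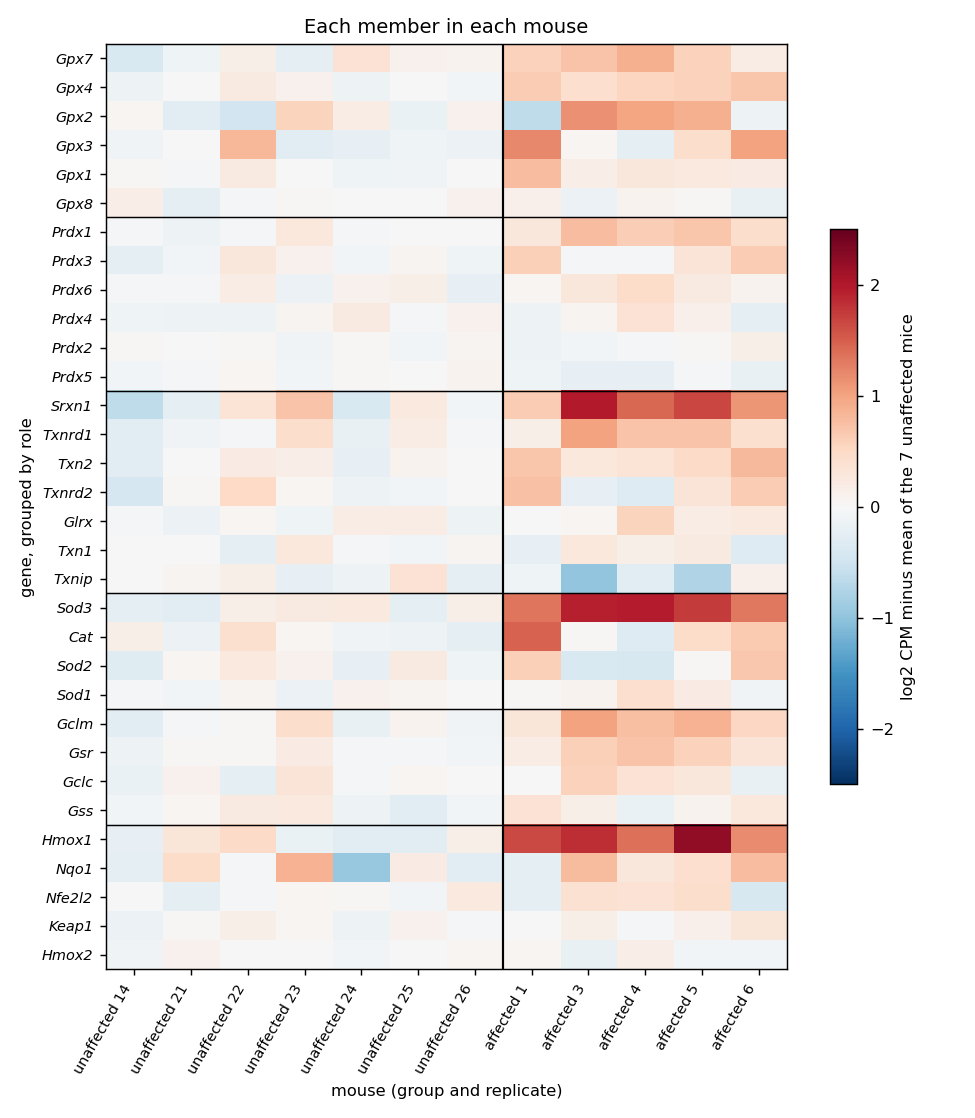
Log2 CPM of each of the 32 genes in each of the 12 mice, less the mean of the 7 unaffected mice, on a colour scale of log2 units (red above that mean, blue below), with genes grouped by role. Affected replicates 3, 4 and 5 are red for *Srxn1*, *Txnrd1*, *Gclm* and *Gpx2*, and replicates 1 and 6 are paler red for *Srxn1*, *Txnrd1* and *Gclm*. Affected replicates 1 and 6 are red for *Cat*, *Gpx3*, *Sod2* and *Prdx3*, and replicate 5 is paler red for *Cat*, *Gpx3* and *Prdx3*.

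The adipose sum was highest in the same mice as the third set of genes. The summed CPM of the 8 adipose genes was highest in affected replicate 1 (3054), then in affected replicates 6 (1322) and 5 (1211), and was 1002 in unaffected replicate 22. Of the 8, *Elovl3* alone was higher in affected mice and none was lower, and none was at 0. *Fabp4*, the most abundant, had a log2 fold change of 0.74 (adjusted p = 0.242). With the mean of the adipose list as a covariate, chosen after seeing the data, the log2 fold change was 0.09 for *Cat* (adjusted p = 0.572), 0.13 for *Gpx3* (adjusted p = 0.666) and 0.23 for *Gpx1* (adjusted p = 0.0956). In the same fit 12 of the 32 genes were higher, beside 1511 of all 19661 genes tested, and *Hmox1* had a value of 1.62 (adjusted p = 0.000342). Values went the other way for *Gpx2* (0.80, adjusted p = 0.0468) and *Prdx6* (0.29, adjusted p = 0.039), which were called in that fit. The summed muscle level was 28409 CPM in affected replicate 6, 11967 in unaffected replicate 22 and 24.0 in affected replicate 1, and its part in these values was not tested.

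**Figure D4:**
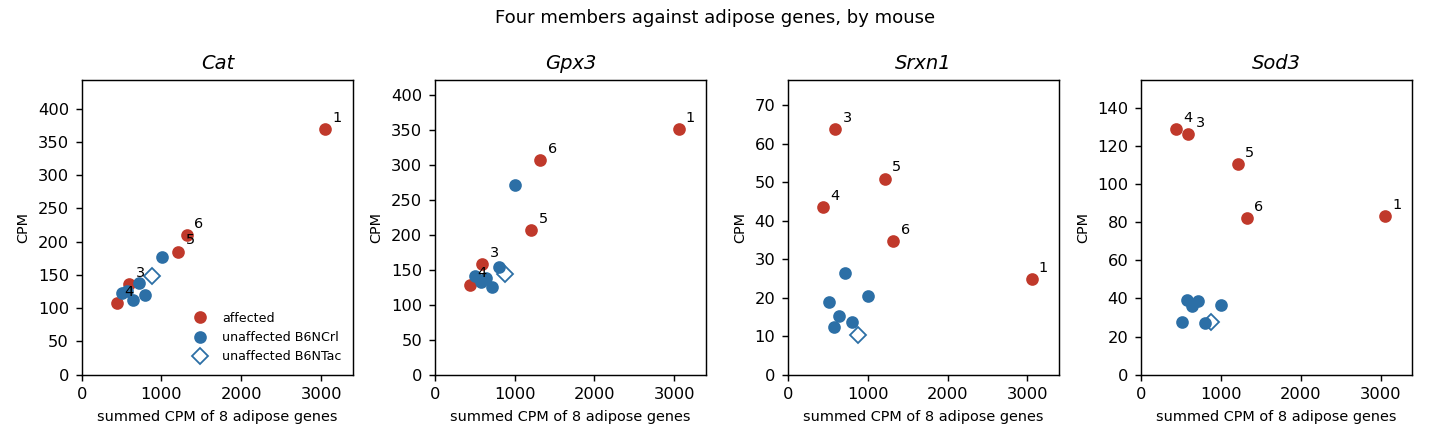
CPM of *Cat*, *Gpx3*, *Srxn1* and *Sod3* in each mouse against the summed CPM of 8 adipose genes, with affected mice in red and numbered, unaffected B6NCrl mice in blue and the unaffected B6NTac mouse as an open diamond. *Cat* and *Gpx3* are highest in affected replicate 1, which has the highest adipose sum (3054), whereas *Srxn1* is lowest there among the affected mice.

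The unaffected B6NTac mouse was set beside the B6NCrl mice. For 20 of the 32 genes its level was within the range of the 6 B6NCrl mice, for 11 it was below and for 1 (*Gpx8*) above. Of the 11 called genes it was below that range for 6 and within it for 5, and it was in the range of the affected mice for 0. The share of all genes tested with replicate 14 below the B6NCrl range was not counted. Replicate 14 is 1 library and had the lowest total count of all mice (11434901). The part of that low total in these positions was not tested. Replicate 14 was itself among the unaffected mice used to call these genes. For the 5 genes without overlap between the groups it could not lie in the affected range, so the 0 was partly fixed. With the B6NCrl mice alone as controls, 10 of the 32 genes were higher and 0 lower, and *Gpx1* was not called (adjusted p = 0.0693). Over all 19494 genes tested in that fit, 1196 were higher and 965 lower.

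Levels between genes were compared as FPKM, which the authors scaled by transcript length. In unaffected mice the mean ran from 1.90 FPKM for *Gpx7* to 514 for *Txnip*. *Txnip* and *Sod1* (305 ± 16.6 FPKM, SD, n = 7) were the highest, followed by *Prdx6* (122 ± 10.05) and *Gpx4* (114 ± 9.42). *Prdx6* and *Gpx4* did not differ beyond their spread. *Hmox1*, with 3.90 ± 0.890 FPKM in unaffected mice (SD, n = 7) and 12.6 ± 4.08 in affected mice (SD, n = 5), was among the lowest in unaffected mice, near *Nqo1* (3.90 ± 1.58 FPKM in unaffected mice). *Sod3* went from 8.90 ± 1.30 FPKM in unaffected mice to 28.3 ± 6.21 in affected mice.

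**Figure D5:**
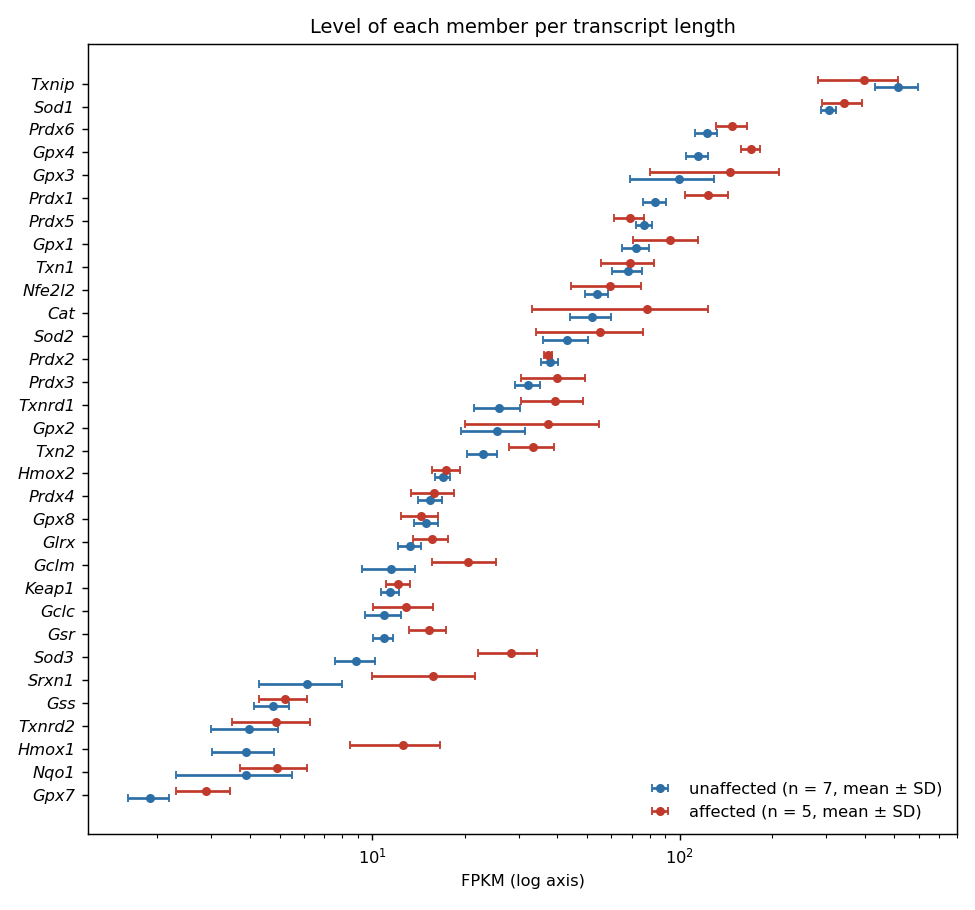
Mean FPKM of each of the 32 genes in unaffected mice (blue, n = 7) and affected mice (red, n = 5) with the SD as a bar, on a log axis and ordered by the level in unaffected mice. *Txnip* (514 FPKM) is at the top and *Gpx7* (1.90 FPKM) at the bottom, and *Sod3*, *Srxn1* and *Hmox1* are the most displaced between the groups.

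Dividing a count by its FPKM and by the library total gives the transcript length that lies behind the value. Of 28 of the 32 genes with at least 100 counts in every mouse, 2 (*Txn2* and *Sod1*) had no overlap between the groups, beside 1.53% of all 10118 such genes. For *Txn2* the length averaged 1330.4 bp in affected mice (SD 16.9, n = 5) and 1355.6 bp in unaffected mice (SD 6.7, n = 7), a difference of -1.86%. The highest affected value was 1349.3 bp and the lowest unaffected value 1349.4 bp, so the groups nearly met. For *Sod1* the length averaged 686.7 bp (SD 5.8, n = 5) against 703.5 bp (SD 5.0, n = 7), a difference of -2.39%. Its highest affected value was 694 bp and its lowest unaffected value 695.8 bp. The greatest differences in mean were for *Sod2* (-12.49%) and *Gclm* (-9.29%), and the groups overlapped for both.

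Other genes around these enzymes were counted in the same fit. Of 25 other NRF2 target genes tested, 14 were higher and 0 lower, with a median log2 fold change of 0.36, and 7 were higher with library totals without *Tg*. The greatest changes were for *Ephx1* (microsomal epoxide hydrolase, 0.93), *Osgin1* (an oxidative stress induced growth inhibitor, 0.92), *Taldo1* (0.74) and *Pgd* (0.71), and the last 2 encode enzymes of the pentose phosphate pathway, which supplies NADPH. In cystine uptake and glutathione turnover, 4 of 13 were higher and 0 lower, and 2 were higher with library totals without *Tg*. They were *Ggt1* (1.27) and *Ggt5* (0.49), which encode enzymes that cleave or hydrolyse extracellular glutathione and its conjugates, *Slc3a2* (0.83), the heavy chain of amino acid transporters, and *Oplah* (0.50), which encodes 5-oxoprolinase. The call of *Oplah* was lost in 16 of 25 other fits and that of *Ggt5* in 2.

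For oxidative folding in the ER, 8 of 12 genes were higher and 0 lower. The greatest log2 fold changes were for the protein disulfide isomerases *Pdia4* (3.00), *Pdia6* (2.37), *Pdia3* (1.85) and *P4hb* (1.15). Among 8 genes that make or use peroxide in the thyroid, 0 were higher or lower in edgeR's quasi-likelihood test. At an unadjusted p under 0.05, 2 of these 8 were higher and 2 lower, and DESeq2 called 1 higher and 1 lower. Their log2 fold changes ran from -0.77 to 0.93, and 1 was higher without affected replicate 6 or without unaffected replicate 22 or 23.

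Of 21 other genes, which are selenoproteins, genes of selenoprotein synthesis and the selenium-binding protein gene *Selenbp1*, 4 were higher and 1 was lower. *Dio2* (type 2 iodothyronine deiodinase, which makes T3 from T4) had a log2 fold change of 3.25, and one of 2.40 (adjusted p = 0.0748) without affected replicate 1, and its call was lost in 16 of 25 other fits. *Msrb1*, which repairs oxidised methionine, had one of 1.25, and *Selenos* (0.91) and *Selenok* (0.90) encode ER membrane proteins. *Selenoh* was lower (-0.42), and the count of lower genes was 0 without affected replicate 1, 3 or 6 or without unaffected replicate 21, 24, 25 or 26. Of 13 other genes of the thioredoxin fold and oxidative repair, 3 were higher (*Msrb3*, 0.72, *Txndc12*, 0.35, and *Txnl1*, 0.32) and 0 lower. *Msrb3* encodes a methionine sulfoxide reductase. The call of *Txnl1* was lost in 12 of 25 other fits and that of *Txndc12* in 6. Without affected replicate 1 or 3, 5 of the 13 were higher, and 1 was with library totals without *Tg*.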

How the data were processed

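RNA from 12 mouse thyroids, 1 library per mouse, had been prepared with ribosomal RNA depletion, sequenced on an Illumina NextSeq instrument, and mapped and counted by gene with OmicSoft Array Studio (Ensembl annotation, GRCm38). The authors deposited estimated counts per gene, without normalization, and FPKM values, which they scaled by transcript length and library. The deposited table also marks genes as confounded, which 14 of the 32 genes are. Among the called genes, *Txnrd1*, *Gclm* and *Gsr* carry that mark, and its part in their counts was not tested. Exons of 8 of the 32 overlap another gene in GENCODE M21, 8 on the opposite strand and 1 also on the same strand.

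Estimated counts were rounded, filtered with filterByExpr (minimum count 10) and scaled by TMM factors. The affected group was tested against the unaffected group by the robust quasi-likelihood test of edgeR (version 4.0.16 in R 4.3.3), without covariates, with Benjamini-Hochberg adjustment over 19661 genes and a threshold of 0.05. CPM values are on the TMM scale, and log2 CPM has a prior count of 2. Groups and replicate numbers are from the labels, and p-values measure the spread between these mice only. The test was checked on simulated counts.

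The 32 genes and all other lists were chosen with earlier results of these data known. Of each other list at most 4 called genes with the greatest change are named, of a marker list at most 2 of the most abundant, and other genes named there were chosen after their values were seen. Alternatives were DESeq2 1.42.0, library totals without TMM factors or without *Tg*, no filter, at least 10 counts in every mouse, limma 3.58.1 on FPKM values (log2 with a pseudocount of 1, with or without a minimum mean of 0.5 FPKM, or with a pseudocount of 0.1 and that minimum), B6NCrl controls alone, covariates from *Xist* or T cell genes, and leaving out each mouse. Library totals without *Tg* were also used without TMM factors. Macrophage and adipose lists as covariates were added after seeing the data. *Nnt* has overlapping records and was left out.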

Additional observations from a re-analysis of the deposited data

Results flagged for a closer look

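In 4 cases among 64 tested (32 genes in each of the 2 groups), 1 mouse stood apart from the rest of its group by Dixon's test on log2 CPM, where chance alone gives about 1 in 20. For *Gpx1*, affected replicate 1 was the highest affected mouse, with a gap to the next of 0.794 of the range of the group. *Gpx1* was also highest in unaffected replicate 22, with a gap of 0.595 of the range. *Gpx3* was highest in unaffected replicate 22 among unaffected mice, with a gap of 0.737 of the range. Affected replicate 1 and unaffected replicate 22 had the highest adipose sums of their groups (3054 and 1002 CPM). *Prdx1* was highest in unaffected replicate 23, with a gap of 0.62 of the range.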

How the results depend on the processing

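In 25 other fits, *Gpx4*, *Prdx1*, *Srxn1*, *Sod3*, *Gclm* and *Hmox1* passed each time, and none of the 11 called genes changed direction. Against 11 genes higher, 7 were higher with library totals without *Tg* and without TMM factors, and 10 without TMM factors alone. Leaving out single mice gave 9 (without affected replicate 3 or 5) to 12 (without affected replicate 4). The scaling without *Tg* moved the median log2 fold change of all genes to -0.13. It moved the calls over all genes from 1500 higher and 1199 lower to 604 and 1709. DESeq2 gave 1 of the 32 lower, and leaving out mice gave 0 to 0. No paired analysis was made because the labels give nothing that pairs the mice. *Gpx7* had the lowest counts of the 32 genes, at under 5 CPM in every mouse. The cause of the changes below was not tested.

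Without *Tg* in the totals, 7 NRF2 targets, 2 genes of cystine uptake and glutathione turnover and 1 other thioredoxin-fold gene were higher and 2 selenoproteins lower. Under DESeq2, 1 gene of thyroid peroxide was higher and 1 lower, 5 thioredoxin-fold genes were higher, and 7 macrophage markers were. The 3 FPKM fits gave 1 thioredoxin-fold gene. With at least 10 counts in every mouse, *Xist* or the adipose covariate, 1 gene of thyroid peroxide was higher. Selenoproteins lower were 0 without TMM factors, without a filter on counts or FPKM, and with *Xist* or the adipose covariate. The macrophage covariate left 2 genes of glutathione turnover. Macrophage markers higher were 8 with the T cell covariate, 0 with their own list, and 2 without TMM factors, without *Tg*, with unfiltered FPKM or with the adipose covariate. Leaving out mice gave 12 to 15 NRF2 targets, 3 to 4 genes of glutathione turnover, 7 to 9 of ER folding, 0 to 1 of thyroid peroxide (1 without affected replicate 6 or unaffected replicate 22 or 23), 3 to 5 selenoproteins higher and 0 to 1 lower, 2 to 5 thioredoxin-fold genes, and 2 (without affected replicate 1 or 5) to 8 (without unaffected replicate 21) macrophage markers. Selenoproteins lower were 0 without affected replicate 1, 3 or 6 or unaffected replicate 21, 24, 25 or 26, and thioredoxin-fold genes were 5 without affected replicate 1 or 3.

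Directions turned for 8 uncalled genes (log2 fold changes). *Gpx8* was 0.0116 with B6NCrl controls alone, 0.0054 with the macrophage covariate, and -0.054 to 0.0329 with single mice left out, positive without affected replicate 3 or 6 or unaffected replicate 14 or 26 (0.0019). *Prdx2* was 0.0073 with at least 10 counts in every mouse, 0.0044 with *Xist*, and -0.0402 to 0.0173 with single mice left out, positive without affected replicate 1, 3 or 4 or unaffected replicate 24 or 26. Without *Tg* in the totals *Prdx4* was -0.0751, *Txn1* -0.0897 and *Keap1* -0.0318. With single mice left out *Prdx4* was -0.0189 (without affected replicate 4) to 0.1219, *Txn1* was -0.0262 to 0.1182, negative without affected replicate 3 or 5 or unaffected replicate 22, and *Hmox2* was -0.0538 to 0.017 (without affected replicate 3). With the adipose covariate *Txnrd2* was -0.0341 and *Sod2* -0.1164. *Hmox2* was 0.0316 with FPKM and a pseudocount of 1, with or without the filter, and 0.0331 with 0.1.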

Other observations

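Summed by role, the 6 glutathione peroxidases reached 434 to 665 CPM in affected mice and 336 to 507 CPM in unaffected mice, and the 6 peroxiredoxins 519.6 to 594 CPM against 455 to 508 CPM. The 4 genes of glutathione synthesis and recycling reached 120.4 to 172 CPM against 93.8 to 132 CPM. The 7 genes of the thioredoxin system, of which *Txnip* is the most abundant, had 1055 to 1771 CPM against 1381 to 1980 CPM. The sums were not tested.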
